A study of Rattus norvegicus with 43 samples.

Results

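The colon of rats fed high-amylose maize starch (diet HAMS) was compared with that of rats fed low-amylose maize starch (diet LAMS). All arrays of these diets entered, which made 15 of the 43 arrays of the series: 8 from HAMS rats and 7 from LAMS rats. Each array came from a separate Sprague Dawley rat that was 11 weeks old, and 100 ng of total RNA from whole distal colon went into each labelling. The diet label of the first group reads HAM, which the design text spells HAMS. That both are Western-type diets that differ in the amylose content of the maize starch is read from the codes, from the series title and from what is known of the study. Sex, housing and further diet composition are not given in the sources used here. For reference points the text also draws on butyrylated high-amylose maize starch (HAMSB, n = 9), high-amylose wheat (HAW, n = 8), low-amylose wheat (LAW, n = 6) and a control diet (CON, n = 5).

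Starch rich in amylose escapes digestion in the small intestine and reaches the large bowel, where bacteria ferment it to the short-chain fatty acids acetate, propionate and butyrate. Colonocytes, the absorptive cells of the colon epithelium, take up butyrate and burn it in their mitochondria as a main fuel, and butyrate also inhibits histone deacetylases. The distal colon meets the products of protein fermentation as well, such as ammonia and hydrogen sulphide, which its epithelium detoxifies. Whole colon holds epithelium, connective tissue, smooth muscle, nerves, vessels and patches of lymphoid tissue, and an array reads their RNA together.

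All values are on the log2 scale. A level is a gene's expression value on an array, and a difference is the HAMS mean minus the LAMS mean from limma, given ± its standard error with 8 HAMS and 7 LAMS arrays. Adjusted p-values are Benjamini-Hochberg values over the 10934 genes tested, and a gene is said to have risen or fallen where its adjusted p lay under 0.05. In HAMS minus LAMS 1545 genes passed, 14.1% of those tested, of which 237 rose (2.17%) and 1308 fell (12%). Every count of a gene group below is to be read against those shares. With each array centred on its own median, the calls split almost evenly, into 484 rises and 466 falls, so that 49.1% of the calls were falls against 84.7% of the calls without centring. Of 123 called genes named here, 73 passed in every one of 15 fits that left out 1 array, and 22 lost the call in over 7 of them. Those losses were most frequent without LAMS replicate 6, where 40 of the 123 did not pass. Of all genes 62.3% had a negative difference, against which counts of signs below are to be read. The median difference over all genes was -0.08 on the deposited values and 0.02 after centring.

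Of 16 colon region markers listed, 9 passed the filter on low signal and none of the others that the table holds lay under it. Of 18 markers of small intestine and other organs, 6 passed it and 9 lay under it. Levels of different probe sets were not set against each other.

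The HAMS and LAMS arrays also differed in measures that no single gene sets. The interquartile range of the 10934 values on an array was 2.02 ± 0.09 in HAMS, from 1.83 to 2.12, and 2.14 ± 0.03 in LAMS, from 2.10 to 2.19 (SD). The difference of -0.12 had p = 0.0028 in an exact two-sided permutation test, where 0.000155 is the smallest value possible. Among only the arrays of the file-name style shared by both diets, it was -0.117 with an exact two-sided permutation p of 0.0545. The lymphoid level, the mean of the 20 tested genes of 31 listed for B cells and germinal centres, was 5.74 at the lowest, 7.70 at the median and 8.46 at the highest in HAMS, and 5.60, 5.69 and 7.95 in LAMS. The ranges overlapped almost fully, but 6 of the 8 HAMS arrays lay above 7 and 4 of the 7 LAMS arrays lay under 6. All 8 HAMS arrays came from files named by a number followed by D. Only 3 of the LAMS files were named so, with lymphoid levels of 5.60 to 5.65, while the other 4 ranged over 5.69 to 7.95. Whole tissue cannot tell more or fewer cells of a type from more or less RNA per cell, for the lymphoid genes or for any group below. What the name style stands for is not given in the sources used here.

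**Figure D1:**
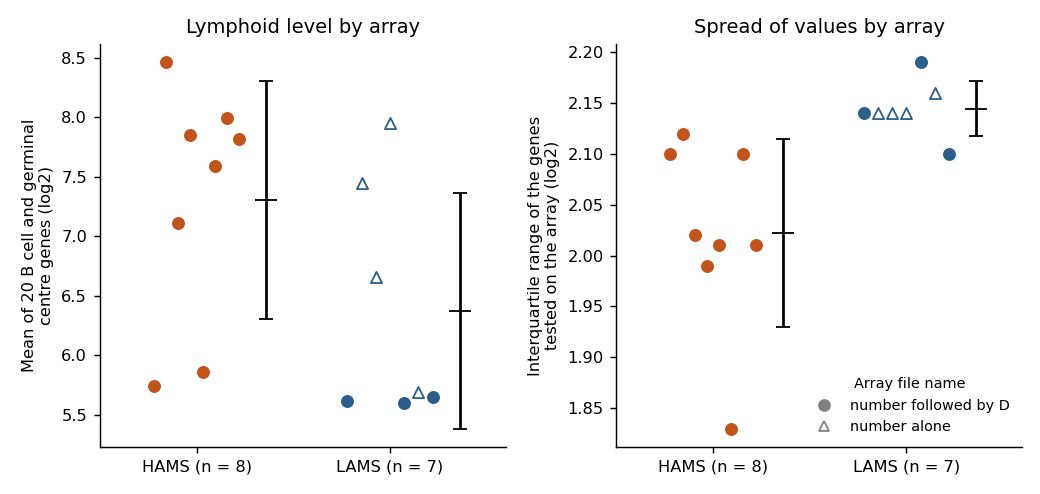
Each point is 1 array, with HAMS left of LAMS and bars for the mean ± SD. The left panel plots the lymphoid level (log2), where the HAMS arrays run from 5.74 to 8.46 and the LAMS arrays from 5.60 to 7.95, and the right panel plots the interquartile range of 10934 genes (log2), where 1 HAMS array lies lowest at 1.83. Filled circles are arrays whose file name is a number followed by D, and open triangles those with a number alone.

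These measures moved with the size of the result. With file-name style as a block 894 genes passed (8.18%; 1.93% rose and 6.25% fell), 453 of them among the 1545. With the lymphoid level as a covariate 538 passed (4.92%; 0.951% rose and 3.97% fell), 442 of them among the 1545. With both, 109 passed (0.997%; 0.21% rose and 0.787% fell), of which 56 were among the 1545, and with array spread as a covariate 4 passed. The part that style, lymphoid tissue and array spread had in the differences was not tested beyond these fits. The difference also followed the level of the gene: in 4 bins of equal size, low to high, the median was 0.09, -0.09, -0.15 and -0.19. After quantile normalisation of the gene values, an alternative chosen after seeing the data, those medians were 0.05, -0.01, -0.02 and -0.04, and 909 genes passed, with 367 higher and 542 lower.

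A core of 56 genes passed in the fit of diets alone, with the style block, and with style and lymphoid level together, in 1 direction throughout. That is 0.512% of the genes tested, and 48 of them fell while 8 rose. Promoters of 3 genes whose differences stand out in the results are shown first. Akr1c19 has the largest fall, and Eif2s2 and Ccdc107 passed the test of maize against wheat for the amylose effect in the fit of diets alone. Each stretch runs 5′ to 3′ from 250 bases before to 50 bases after the annotated start, from RefSeq on build GRCr8. It lies at chr17:70913666-70913965 on the plus strand for Akr1c19, at chr3:163855521-163855820 on the minus strand for Eif2s2 and at chr5:62545100-62545399 on the plus strand for Ccdc107.
Akr1c19: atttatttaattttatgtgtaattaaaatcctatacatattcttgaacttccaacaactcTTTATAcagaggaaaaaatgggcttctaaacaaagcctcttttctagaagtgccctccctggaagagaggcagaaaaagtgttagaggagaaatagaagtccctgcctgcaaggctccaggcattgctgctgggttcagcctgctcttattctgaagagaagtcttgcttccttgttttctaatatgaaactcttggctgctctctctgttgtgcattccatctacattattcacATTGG
Eif2s2: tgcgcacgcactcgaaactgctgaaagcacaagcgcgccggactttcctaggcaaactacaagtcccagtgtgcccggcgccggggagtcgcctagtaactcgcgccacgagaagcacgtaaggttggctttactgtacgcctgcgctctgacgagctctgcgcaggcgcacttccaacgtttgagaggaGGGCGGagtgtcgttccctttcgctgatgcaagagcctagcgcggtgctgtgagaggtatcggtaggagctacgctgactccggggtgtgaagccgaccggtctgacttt
Ccdc107: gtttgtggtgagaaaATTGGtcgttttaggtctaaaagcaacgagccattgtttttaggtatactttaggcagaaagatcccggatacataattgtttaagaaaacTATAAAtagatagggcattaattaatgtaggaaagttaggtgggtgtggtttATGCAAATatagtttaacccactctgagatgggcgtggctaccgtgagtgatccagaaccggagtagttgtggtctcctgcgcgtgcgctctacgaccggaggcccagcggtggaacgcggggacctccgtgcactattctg

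Capitals mark the letters of the motifs that were searched on both strands. They were the TATA box TATAAA, the CCAAT box CCAAT, the GC box GGGCGG, the E-box CACGTG, the antioxidant response element core TGACNNNGC and the octamer ATGCAAAT, the last added after the Ccdc107 sequence had been read. The Akr1c19 window held the TATA letters on the opposite strand 190 bases before the start and the CCAAT letters on the opposite strand after it. The Eif2s2 window, rich in G and C, held a GC box 60 bases before the start. In the Ccdc107 window lay TATA letters 144 bases before the start, an octamer 92 bases before it, and the CCAAT letters on the opposite strand 235 bases before it. Of 33469 promoter windows of this length, 14.2% held the TATA letters, 37.5% CCAAT, 33.1% the GC box, 6.42% the E-box, 12.1% the antioxidant core and 1.78% the octamer. These are matches of letters and not shown to be bound.

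Akr1c19 encodes an aldo-keto reductase, an enzyme class that reduces carbonyl groups of drugs and steroids. Its levels were 3.29, 4.22 and 4.94 (lowest, median and highest array) in HAMS, against 5.30, 5.63 and 5.94 in LAMS. Every HAMS array lay under every LAMS array. The difference was -1.42 ± 0.23 (adjusted p = 0.00182), a level 2.68-fold lower, and -1.02 with style and lymphoid level (adjusted p = 0.0134). Its HAMS mean of 4.19 lay under 4.75, the filter's low-signal floor, where arrays compress differences. Means in the other diets lay between, at 4.99 ± 0.43 in HAMSB, 5.15 ± 0.37 in HAW, 5.36 ± 0.73 in LAW and 5.04 ± 0.46 in CON (SD).

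Eif2s2 encodes the beta subunit of the initiation factor that brings the first transfer RNA to the ribosome. It had the smallest p of all genes, with levels of 7.68, 7.90 and 8.57 in HAMS, against 8.73, 8.89 and 9.27 in LAMS. No HAMS array reached the lowest LAMS array. The difference of -0.93 ± 0.14 (adjusted p = 0.000324), 1.91-fold lower, was -0.94 with the style block, -0.86 with the lymphoid level and -0.85 with both (adjusted p = 0.00231).

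Rpph1 is named for the RNA component of ribonuclease P, which trims transfer RNA precursors. The RefSeq table also lists the symbol under Rmrp, the RNA of the related ribonuclease MRP, so which RNA the probe set reads is not settled. It read 12.21, 12.71 and 13.06 in HAMS, against 11.47, 11.87 and 12.12 in LAMS, again with no overlap. The rise was 0.89 ± 0.15 (adjusted p = 0.00233), and 0.98 with style and lymphoid level (adjusted p = 0.0013). With array spread as a covariate the 4 genes that passed were Eif2s2 (-0.82, adjusted p = 0.00676), Rpph1 (0.95, adjusted p = 0.00676), Lsm4 and Akr1c19 (-1.16, adjusted p = 0.049).

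Lsm4, part of the ring that binds the U6 spliceosomal RNA, had levels of 8.65, 9.00 and 9.24 in HAMS, against 8.16, 8.46 and 8.69 in LAMS. Only the lowest HAMS array fell inside the LAMS range. It rose by 0.52 ± 0.10 (adjusted p = 0.00409). H3f3b, which encodes the replacement histone H3.3, read 9.22, 9.77 and 10.11 in HAMS, against 10.11, 10.33 and 10.76 in LAMS, and its difference was -0.65 ± 0.13. Trim35, of the tripartite motif family of ubiquitin ligases, read 6.97, 7.43 and 7.77 in HAMS, against 7.71, 8.04 and 8.35 in LAMS, for a difference of -0.67 ± 0.12. The groups of H3f3b touched without overlap, and those of Trim35 overlapped only at the edge. Pon3, a paraoxonase that hydrolyses lactones, fell by 0.87 ± 0.16, Kank1, a cytoskeletal scaffold, by 0.77 ± 0.15, and Akap1, which anchors protein kinase A to mitochondria, by 0.75 ± 0.15. LOC366310, listed by RefSeq as a pseudogene, rose by 0.96 ± 0.18.

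**Figure D2:**
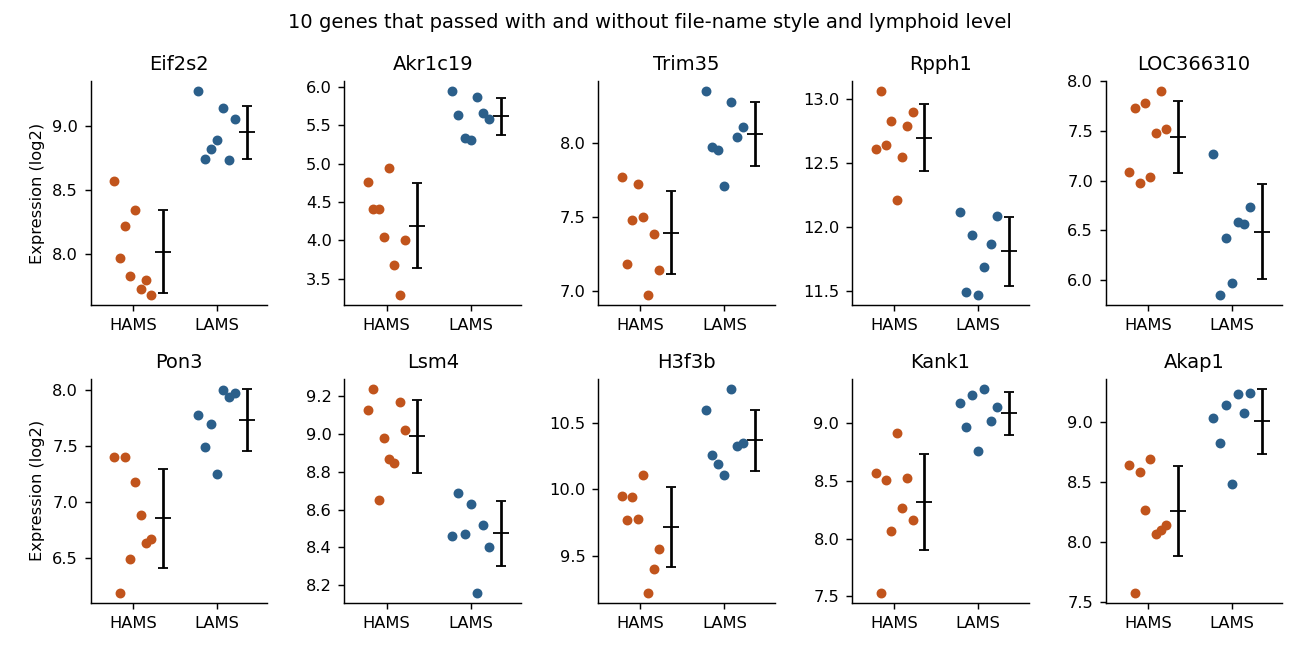
Each panel plots the expression level (log2) of 1 gene in 8 HAMS arrays, left, and 7 LAMS arrays, right, with bars for the mean ± SD. The 10 genes are those of smallest p among the 56, and HAMS and LAMS arrays do not overlap in Eif2s2, Akr1c19, Rpph1 and H3f3b.

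Of the remaining 46 genes of that core, 10 are described next, chosen after their values had been seen. Pck1, phosphoenolpyruvate carboxykinase of gluconeogenesis, read 8.60, 9.97 and 10.42 in HAMS, against 9.88, 10.96 and 11.20 in LAMS, and fell by 0.99 ± 0.23 (adjusted p = 0.00842). Pcca, a subunit of the carboxylase that feeds propionate into the citrate cycle, fell by 0.69 ± 0.15 (adjusted p = 0.00818). The muscle-type enolase Eno3 fell by 0.76 ± 0.15, the mitochondrial hypoxia-inducible protein gene Higd1a by 0.71 ± 0.17 and the sphingolipid hydroxylase gene Degs2 by 0.70 ± 0.18. Of the Wnt pathway, which maintains the crypts, the receptor gene Fzd5 fell by 0.66 ± 0.17 and Ctnnb1, which encodes beta-catenin, by 0.41 ± 0.10. The somatostatin receptor gene Sstr1 fell by 0.93 ± 0.22 and Sval1 by 1.01 ± 0.27. Fxyd4, a regulator of the sodium pump induced by corticosteroids in colon, fell by 0.67 ± 0.24 (adjusted p = 0.0496), a call that ended in 10 of 15 fits that each left out 1 array. With style and lymphoid level these 10 genes lay between -1.0 for Sval1 and -0.40 for Ctnnb1. Fzd5, Sval1 and Fxyd4 did not pass with the lymphoid level and no style block (adjusted p = 0.0516, 0.0558 and 0.202). After quantile normalisation Fzd5, Ctnnb1 and Fxyd4 did not pass (adjusted p = 0.0511, 0.0762 and 0.127), while Eno3, Higd1a and Degs2 did.

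In all, 77 genes (0.704% of those tested) had HAMS and LAMS arrays that did not overlap, 8 of them among the 56. Mat2a, Med14 and Nfe2l2 were such genes outside the 56. Nfe2l2, the transcription factor that switches on antioxidant genes, read 8.27, 8.58 and 8.76 in HAMS, against 8.96, 9.07 and 9.28 in LAMS. It fell by 0.53 ± 0.12 (adjusted p = 0.0092), and its difference was -0.25 with style and lymphoid level (adjusted p = 0.289). Med14, a subunit of the Mediator of transcription, read 3.20, 4.56 and 5.35 in HAMS, where 4 of the 8 arrays lay under the low-signal floor, against 5.57, 5.75 and 6.21 in LAMS.

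The 10 largest falls and 10 largest rises differed in how they fared with the lymphoid level in the fit. Among the falls, all 10 still passed with that covariate, from -1.40 for Med14 to -0.71 for Cldn8, including Aspn, Scin, Yes1, Il18, Adamdec1, Hoxa5 and Slc25a24. With style added, only Akr1c19 did. Among the rises Ccdc107 (1.19), Fancd2osl1 (1.3), LOC366310 (1.01), Rpph1 (1.00) and Pou2f2 (0.31) passed with the lymphoid level, and Slpi, Sit1, Smap2, Ptpn7 and Spi1 did not. Pou2f2 is itself part of the lymphoid level, so that covariate cannot test it. Ccdc107, which encodes a coiled-coil protein, read 9.01, 10.10 and 11.25 in HAMS, against 7.95, 8.49 and 9.65 in LAMS, with 6 HAMS arrays above every LAMS array. Slpi, an inhibitor of neutrophil elastase secreted by mucosa, read 6.40, 8.39 and 9.42 in HAMS, against 5.48, 6.33 and 8.49 in LAMS, with wide overlap.

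Genes that handle colonocyte fuel were lower in HAMS than in LAMS where they passed, and none rose. Fatty acid oxidation and ketogenesis had 11 falls among 30 genes, with a list median of -0.36 against -0.08 over all genes. Decr1, which lets unsaturated fatty acids enter beta-oxidation, read 6.39, 6.64 and 7.34 in HAMS, against 6.94, 7.46 and 7.63 in LAMS, and fell by 0.58 ± 0.15 (adjusted p = 0.0127). The groups overlapped at their edges. Acaa2, the thiolase that splits off acetyl-CoA, fell by 0.65 ± 0.17, Acadsb, a short branched-chain dehydrogenase, by 0.75 ± 0.21, and Pex11a, which multiplies peroxisomes, by 0.36 ± 0.10. Cpt1a, the gate for fatty acids into mitochondria, did not pass (-0.44 ± 0.18, adjusted p = 0.0788). The list median was -0.40 with the style block, -0.19 with the lymphoid level and -0.17 with both, and 3 of its genes fell with centring, 7 with the style block, 1 with the lymphoid level and 0 with both.

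Of 26 genes of the citrate cycle and pyruvate oxidation 6 fell (list median -0.19), against 2 with centring, 7 with the style block, 1 with the lymphoid level and 0 with both. Dld, the dehydrogenase shared by the pyruvate and oxoglutarate complexes, read 6.85, 7.56 and 8.35 in HAMS, against 8.12, 8.45 and 8.90 in LAMS, and fell by 0.87 ± 0.21. Pdp1, the phosphatase that turns pyruvate dehydrogenase on, fell by 0.54 ± 0.14, Suclg2 of succinate-CoA ligase by 0.47 ± 0.13 and Ogdh of oxoglutarate dehydrogenase by 0.34 ± 0.09. Of 57 subunits of oxidative phosphorylation 3 fell, a smaller share than the 12% over all genes: Ndufs4 (-0.54 ± 0.16) and Ndufs1 (-0.53 ± 0.15) of complex I, and Atp5f1a of ATP synthase (-0.31 ± 0.10). That list depended on the fit, with a median of -0.18 and 3 falls in the fit of diets alone, -0.36 and 19 falls with the style block, 0.01 and 0 falls with the lymphoid level, and -0.14 and 5 falls with both. Of 32 mitochondrial carriers 7 fell (4 with centring, 4 with the style block, 3 with the lymphoid level, 0 with both), among them Slc25a24, which carries adenine nucleotides (-1.04 ± 0.21), Slc25a23 of the same kind (-0.50 ± 0.12) and the NAD carrier Slc25a51 (-0.41 ± 0.10).

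Of 13 genes that carry or sense short-chain fatty acids 3 fell and 0 rose, against 0 falls with centring, 2 with the style block and 0 with the lymphoid level, alone or with style. Slc16a1, the proton-coupled carrier that takes up butyrate, read 9.25, 9.97 and 10.51 in HAMS, against 10.15, 10.48 and 10.64 in LAMS. Its difference was -0.54 ± 0.15 (adjusted p = 0.0198), -0.31 with the lymphoid level and -0.24 with style and lymphoid level (adjusted p = 0.348). The acetate-activating enzymes Acss2 (-0.49 ± 0.13) and Acss3 (-0.68 ± 0.20) fell, while the sodium-coupled butyrate carrier Slc5a8 did not pass (-0.53 ± 0.21, adjusted p = 0.0733). The list median was -0.21, and 0.04 with style and lymphoid level.

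Genes that detoxify hydrogen sulphide and handle sulphur amino acids fell in part. Of 19 tested 6 fell and 0 rose (list median -0.38), and the falls were 3 with centring and 5 with the style block. Sqor, the mitochondrial quinone reductase that takes the first step of sulphide oxidation, read 9.24, 9.74 and 10.24 in HAMS, against 10.09, 10.39 and 10.87 in LAMS, with 1 HAMS array inside the LAMS range. It fell by 0.72 ± 0.18 (adjusted p = 0.0109). Ethe1, the persulphide dioxygenase of the next step, fell by 0.51 ± 0.14, and Cth, which makes cysteine and also sulphide, by 0.92 ± 0.23. Mat2a, which makes the methyl donor S-adenosylmethionine, read 8.59, 9.35 and 9.83 in HAMS, against 9.87, 10.13 and 10.64 in LAMS, with no overlap, and fell by 0.80 ± 0.18. With the lymphoid level Mat2a (-0.68), Cth (-0.55) and Sqor (-0.53) still passed, and with style as well none of the list did (median -0.11).

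The same donor feeds the polyamines, small cations needed for growth. Of 14 polyamine genes 3 fell, against 1 with centring, 1 with the style block, 1 with the lymphoid level and 0 with both: Amd1, which decarboxylates S-adenosylmethionine (-0.80 ± 0.18), Azin1, which shields ornithine decarboxylase (-0.39 ± 0.13), and Sat1, which acetylates polyamines for breakdown (-0.44 ± 0.15). Azin1 lost its call in 6 of 15 fits that left out 1 array, and Sat1 in 11. Of 18 genes of ammonia, urea cycle and glutamine 5 fell (list median -0.24), against 1 with centring, 5 with the style block, 2 with the lymphoid level and 0 with both. Glud1, which releases ammonia from glutamate, fell by 0.39 ± 0.10, Oat by 0.57 ± 0.16, Aldh18a1 by 0.53 ± 0.13 and the urea cycle lyase Asl by 0.31 ± 0.08, and the glutamine carrier Slc38a1 fell by 0.45 ± 0.11. With the lymphoid level the list median was -0.05.

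Among xenobiotic and efflux genes 8 of 28 fell (list median -0.35), against 2 falls and 1 rise with centring, 2 falls with the style block, 1 with the lymphoid level and 1 with both. Akr1c19 was first, with the sulphotransferase Sult1b1 at -0.75 ± 0.21 and the epoxide hydrolase Ephx1 at -0.51 ± 0.15. Of 38 glutathione and antioxidant genes 5 fell, including Nfe2l2 and the extracellular peroxidase Gpx3 (-0.51 ± 0.15), and 33 did not pass. With centring 1 of the 38 fell, and with the lymphoid level 1 fell and 1 rose. None of 20 cholesterol genes passed (list median -0.10), and that list's differences lay between -0.22 and 0.17.

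Absorptive colonocyte markers were lower in HAMS over most of the list, but few passed. Of 31 tested 28 had a negative difference and 5 fell (list median -0.33; -0.11 with the lymphoid level, -0.04 with style as well). The falls numbered 1 with centring, 2 with the style block, 0 with the lymphoid level and 1 with both. Of the 5 that fell, Nr3c2, Hsd11b2 and Sgk1 belong to the response to aldosterone, a hormone that drives sodium absorption in this segment. Nr3c2, the mineralocorticoid receptor, read 7.93, 8.79 and 9.44 in HAMS, against 9.07, 9.44 and 9.82 in LAMS. The receptor gene fell by 0.59 ± 0.17, Hsd11b2, which keeps cortisol-type hormones off it, by 0.47 ± 0.15 and its target kinase Sgk1 by 0.51 ± 0.17. With the lymphoid level their differences were -0.35, -0.23 and -0.35, and none passed. Leaving out 1 array ended the call of Nr3c2 in 4 of 15 fits and those of Hsd11b2 and Sgk1 in 8 each. Vil1, the microvillus actin bundler, fell by 0.56 ± 0.15, while the chloride-bicarbonate exchanger Slc26a3, abundant in colon, did not pass (-0.26 ± 0.19, adjusted p = 0.344; 0.00 with the lymphoid level to 2 decimals).

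Several genes of chloride and fluid secretion fell. Ion and water transport had 8 falls and 0 rises among 32 genes (list median -0.28), against 3 falls each with centring, with the style block and with the lymphoid level, and 1 with both. Kcne3, the potassium channel subunit that supports chloride secretion, read 6.05, 6.52 and 7.06 in HAMS, against 6.69, 7.46 and 8.09 in LAMS, and fell by 0.87 ± 0.20 (adjusted p = 0.00818). Gucy2c, the guanylin receptor, fell by 0.68 ± 0.17, Slc12a2, which loads chloride into the cell, by 0.71 ± 0.18, the anion exchanger Slc4a2 by 0.44 ± 0.11 and the chloride channel Cftr by 0.73 ± 0.23. Cftr lost its call in 7 of 15 fits that left out 1 array. Guca2a, the guanylin gene, did not pass (-0.18 ± 0.19, adjusted p = 0.494).

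Of 25 tight junction genes 6 fell and 0 rose (list median -0.34, and 0.00 with style and lymphoid level). There were 3 falls and 1 rise with centring, 4 falls with the style block, 2 falls and 1 rise with the lymphoid level and 0 falls with both. Cldn8, a claudin that seals the distal colon against sodium backflow, read 5.43, 6.23 and 7.48 in HAMS, against 6.79, 7.40 and 7.75 in LAMS, and fell by 1.05 ± 0.24. The pore-forming Cldn2 (-0.71 ± 0.22), Ocln (-0.61 ± 0.17) and Cxadr (-0.68 ± 0.18) fell as well. Leaving out 1 array ended the call of Cldn2 in 7 of 15 fits and that of Ocln in 1.

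Goblet cell genes showed 6 falls among 22, with 0 rises (list median -0.25, and 0.04 with style and lymphoid level). The falls numbered 2 with centring, 5 with the style block, 2 with the lymphoid level and 1 with both. Agr2, the disulphide isomerase that folds the mucin Muc2, read 9.07, 10.30 and 11.08 in HAMS, against 10.36, 11.22 and 11.65 in LAMS. It is the goblet gene among the 56, at -0.78 ± 0.22 (adjusted p = 0.0196) and -0.55 with style and lymphoid level (adjusted p = 0.0491), though with the lymphoid level alone its adjusted p was 0.061. Creb3l4 (-0.77 ± 0.19), the sialyltransferase St6galnac1 (-0.59 ± 0.15) and Sytl2 of granule release (-0.57 ± 0.18) also fell. Of 18 enteroendocrine genes 2 fell, the hormone-processing peptidase Cpe (-0.59 ± 0.14; -0.42 with style and lymphoid level, adjusted p = 0.0258) and the decarboxylase Ddc (-0.72 ± 0.20).

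Of 21 stem cell and Wnt target genes 3 fell, Slc12a2, Prom1 (-0.57 ± 0.20) and the Wnt-damping ligase Rnf43 (-0.41 ± 0.14), and the list median turned from -0.09 to 0.02 when arrays were centred. Prom1 lost its call in 11 of 15 fits that left out 1 array and Rnf43 in 12. Lgr5, the marker of crypt base stem cells, did not pass (-0.57 ± 0.23, adjusted p = 0.081). Region markers had 5 falls among 9 tested, against 3 with centring, 4 with the style block, 1 with the lymphoid level and 0 with both (median -0.47, and -0.23 with both). The hindgut patterning gene Hoxd13 read 8.20, 9.31 and 9.86 in HAMS, against 9.69, 10.03 and 10.27 in LAMS, with 6 of the 8 HAMS arrays under every LAMS array. It fell by 0.74 ± 0.15 (adjusted p = 0.00572; -0.52 with style and lymphoid level, adjusted p = 0.0633), Hoxd10 by 0.49 ± 0.16 and the intestinal cadherin Cdh17 by 0.49 ± 0.13.

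**Figure D3:**
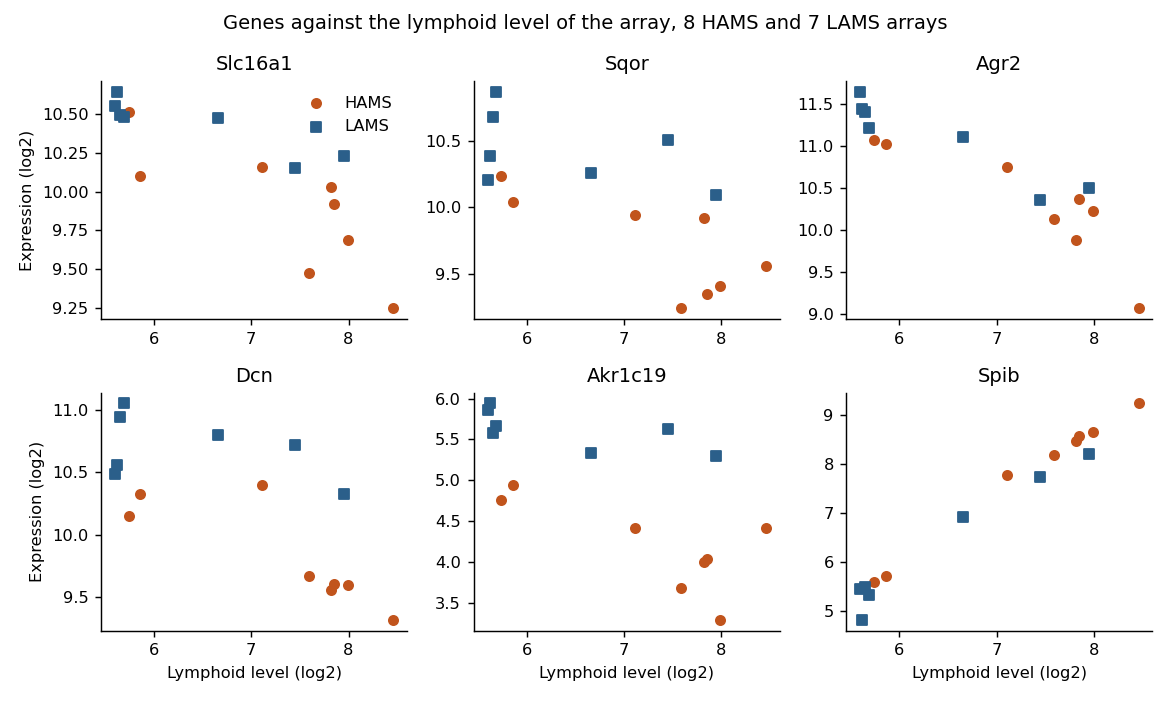
Expression level (log2) of 6 genes, 1 to a panel, against the lymphoid level (log2) of the same array, with 8 HAMS arrays as circles and 7 LAMS arrays as squares. Spib, itself one of the 20 genes in the lymphoid level, climbs with it from 4.83 to 9.24, Agr2 and Slc16a1 are lowest on the HAMS array of highest lymphoid level, and the HAMS arrays of Akr1c19 (3.29 to 4.94) lie under its LAMS arrays (5.30 to 5.94) at both ends of the axis.

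Connective tissue and muscle genes were lower in HAMS in the fit of diets alone, and the counts depended on the fit. Of 32 fibroblast and matrix genes 12 fell, 0 rose and 31 had a negative difference (list median -0.36). The falls numbered 9 with centring, 6 with the style block, 6 with the lymphoid level and 0 with style and lymphoid level. Dcn, which encodes the collagen-binding proteoglycan decorin, read 9.32, 9.64 and 10.40 in HAMS, against 10.33, 10.72 and 11.05 in LAMS, with 6 HAMS arrays clearly under every LAMS array and the others at the edge of the LAMS range. It fell by 0.87 ± 0.17 (adjusted p = 0.00513), the related Lum by 0.74 ± 0.17, Aspn by 1.35 ± 0.31 and the fibrillar collagen gene Col3a1 by 0.70 ± 0.14. All 4 still passed with the lymphoid level, with differences of -0.66, -0.55, -1.0 and -0.54, and with style as well none did (list median -0.15). Tcf21, a transcription factor of mesenchymal cells, was in the core of 56, at -0.60 ± 0.20 (adjusted p = 0.043), and did not pass with the lymphoid level alone (adjusted p = 0.185).

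Of 26 smooth muscle genes all had a negative difference and 9 fell (list median -0.34, and -0.08 with style and lymphoid level). Only 1 fell with centring, 4 with the style block, 1 with the lymphoid level and 0 with both. The caveolar scaffold Cav1 fell by 0.79 ± 0.17 and the smooth muscle myosin Myh11 by 0.45 ± 0.14. Of 20 adipocyte genes 3 fell, among them Pck1, which colonocytes express too, and the fatty acid carrier Cd36 (-0.86 ± 0.24). The adipocyte list kept a median of -0.24 with style and lymphoid level, against -0.01 over all genes. Endothelial genes went both ways, with Cdh5 higher (0.31 ± 0.08), Esam lower (-0.49 ± 0.12) and a list median of -0.09 that was 0.02 with centring. None of 24 genes of enteric neurons and glia passed (list median -0.12).

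Lymphoid genes lay higher in HAMS by list medians of 0.92 for B cells and germinal centres, 0.91 for T and NK cells, 0.69 for lymphocyte homing and 0.40 for MHC class II presentation, with few calls, while arrays of 1 diet differed widely. Of 20 B cell genes all had a positive difference and 3 rose: Pou2f2, a transcription factor of B cells (0.81 ± 0.25), Mef2b of germinal centres (0.35 ± 0.12) and Cd52 (0.30 ± 0.10). Spib, a factor of B cells and microfold cells, read 5.60, 8.32 and 9.24 in HAMS, against 4.83, 5.50 and 8.20 in LAMS, with wide overlap and no call (1.5 ± 0.61, adjusted p = 0.0809). Of 26 T and NK genes all were positive in sign and 3 rose, Sit1, Ptpn7 and Cd7 (0.47 ± 0.17). The T cell receptor gene Cd3e did not pass (1.22 ± 0.67, adjusted p = 0.194), and its difference was -0.15 with the lymphoid level. The calls of Pou2f2, Sit1 and Ptpn7 each ended in 10 of 15 fits that left out 1 array, Cd7 in 12, Mef2b and Cd52 in 9. With centring 4 B cell genes and 4 T and NK genes rose, against 0 and 1 with the style block. Medians of the 4 lists were between -0.02 and 0.07 with the lymphoid level, which is made of the first list and so cannot test it.

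In the fit of diets alone the homing and class II lists had 0 calls in 25 and 17 genes. Among those that did not pass were Ltb, the lymphotoxin that organises lymphoid tissue (1.32 ± 0.50, adjusted p = 0.0656), and the homing receptor Ccr7 (1.07 ± 0.45, adjusted p = 0.0891). Of the class II genes 4 rose with centring, 1 with the style block and 0 with the lymphoid level. The homing list had 0 calls in each of these fits. Of 26 interferon response genes only Bst2 rose (0.54 ± 0.16). The immunoproteasome gene Psmb8 did not pass (0.66 ± 0.26, adjusted p = 0.071). Of 25 genes listed for macrophages and dendritic cells 2 fell and 0 rose (list median 0.00), Adamdec1 (-1.05 ± 0.24) and the endotoxin receptor Cd14 (-0.52 ± 0.17). With the lymphoid level Adamdec1 passed and Cd14 did not. Spi1, a transcription factor of myeloid and B cells that was in no list, rose by 0.82 ± 0.24 and did not pass with the lymphoid level (adjusted p = 0.0587). Of 9 genes listed for granulocytes and mast cells the receptor gene Kit fell (-0.50 ± 0.14) and the eosinophil protein gene Prg2 rose (0.74 ± 0.26), and neither passed with the lymphoid level. Cpa3 of the same list did not pass (-0.64 ± 0.27, adjusted p = 0.0883). Which cells the RNA of Kit came from was not tested. Prg2 lost its call in 12 of 15 fits that left out 1 array and Cd14 in 9. Of 21 mucosal defence genes 2 rose and 3 fell (list median -0.20). There were 2 rises and 1 fall with centring, 1 rise and 2 falls with the style block, 0 rises and 1 fall with the lymphoid level, and 0 calls with both. Slpi was among the rises, while Il18, an epithelial cytokine, read 6.02, 6.67 and 7.63 in HAMS, against 7.35, 7.76 and 8.04 in LAMS, and fell by 1.05 ± 0.24. Pigr, which carries IgA across the epithelium, fell by 0.46 ± 0.14, and Jchain, which joins IgA, did not pass (0.66 ± 0.27, adjusted p = 0.0803).

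**Figure D4:**
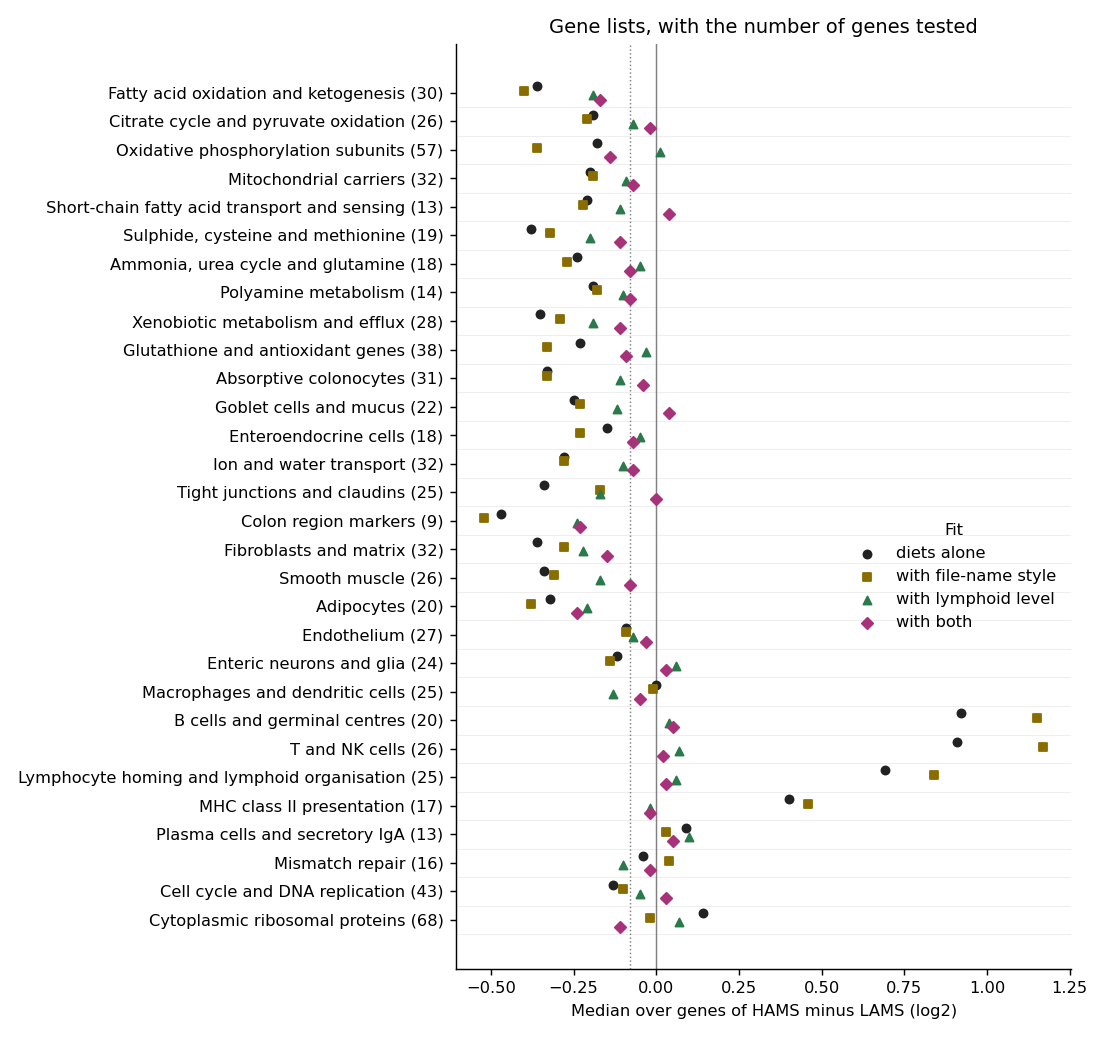
Median over the tested genes of each list of HAMS minus LAMS (log2), with the number of genes in parentheses, in the fit of diets alone, with file-name style as a block, with the lymphoid level as a covariate and with both. The dotted line marks the median over all genes, -0.08. Most metabolic, epithelial and stromal lists lie left of it in the fit of diets alone, the lymphoid lists lie right of 0, and most lists lie closer to 0 with the lymphoid level.

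Growth and genome maintenance showed few calls. None of 26 double-strand break repair, 23 base excision and single-strand break repair or 34 p53 pathway genes passed, while 1308 of 10934 genes fell. Ogg1, the glycosylase for oxidised guanine, was at -0.24 ± 0.12 (adjusted p = 0.157). Of 16 mismatch repair genes Mlh3 (-0.55 ± 0.15) and Msh3 (-0.47 ± 0.13) fell, both past the test with the lymphoid level and neither with the style block. Of 43 cell cycle genes only Cdk6 fell (-0.58 ± 0.15). Hdac1, a deacetylase that butyrate inhibits, read 8.84, 9.18 and 9.62 in HAMS, against 9.12, 9.70 and 9.96 in LAMS, and fell by 0.48 ± 0.13. Hdac1 passed with the lymphoid level (adjusted p = 0.0463), but not with the style block (adjusted p = 0.0678) or with both (adjusted p = 0.257). Hdac2 fell by 0.46 ± 0.15, or 0.14 with the style block, and the other 16 deacetylases and sirtuins tested did not pass. Calls in this list of 18 depended on the fit. There were 2 rises and 1 fall with centring, 3 rises and 0 falls after quantile normalisation, and 1 rise and 0 falls with the style block. With the lymphoid level 0 rose and 1 fell, and 0 genes passed with both.

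Of 16 clock genes Clock (-0.64 ± 0.17), Per2 (-0.56 ± 0.18) and Bmal1 (-0.40 ± 0.13) fell. With centring 1 fell, and 0 with the style block, with the lymphoid level or with both. The hours of sampling are not given in the sources used here. Cytoplasmic ribosomal proteins had 7 rises and 0 falls among 68 (list median 0.14), such as Rpl35 (0.44 ± 0.12) and Rps16 (0.35 ± 0.11). That direction turned with the style block, where the median was -0.02 with 3 rises and 3 falls, and with style and lymphoid level, where it was -0.11 with 4 falls. It stayed with centring, where the median was 0.25 with 14 rises and 0 falls. After quantile normalisation the median was 0.20 with 9 rises and 0 falls, and with the lymphoid level 0.07 with 0 calls. Of 56 splicing factors 3 fell, led by Prpf39 (-0.80 ± 0.22) and Luc7l (-0.60 ± 0.18), while with centring 4 rose and 2 fell and with the style block 4 rose and 1 fell. Of 36 proteasome genes 4 fell, such as Psmc6 (-0.54 ± 0.15), and of 33 heat shock genes 5, such as the mitochondrial Trap1 (-0.34 ± 0.09). Among proteasome genes 3 rose and 1 fell with centring, 2 rose and 4 fell with the style block, and 1 fell with the lymphoid level. Among heat shock genes 1 rose and 0 fell with centring, and 1 rose and 3 fell with the style block. That list had 0 calls with the lymphoid level, and both lists had 0 with style and lymphoid level. List medians of splicing and proteasome genes turned from -0.10 to 0.01 and from -0.05 to 0.06 with centring.

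High- against low-amylose wheat was set beside high- against low-amylose maize. Whether amylose content changed by the same amount in both grains is not given in the sources used here. In HAW minus LAW (n = 8 and 6) 0 genes passed (0%), in limma and under each alternative run. An unadjusted limma p under 0.05 was found for 212 of the 10934 genes, a smaller share than the 0.05 that chance alone gives on average. At the median over genes the 95% interval spanned ±0.25 in maize and ±0.26 in wheat. Of the 1545 genes called in maize 873 had the same sign in wheat, 56.5%, against 53.2% of all genes. Over the 10934 genes the 2 differences, which share no arrays, correlated at r = -0.08 (rho = -0.01), given as a description, since genes are not independent. The wheat list medians were 0.24 for adipocytes, 0.11 for absorptive colonocytes, 0.02 for fatty acid oxidation, -0.01 for fibroblasts and -0.12 for both B and T cell genes, where the maize medians were -0.32, -0.33, -0.36, -0.36, 0.92 and 0.91. Of the 56 core genes 11 had the same sign in wheat and 45 the opposite sign. The wheat arrays also entered the style block by which the 56 were chosen, so this count is a description and tests nothing.

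The test of the amylose effect in maize minus that in wheat passed for 3 genes, 0.0274% of those tested, with 2 higher (0.0183%) and 1 lower (0.00915%). Eif2s2 stood at -0.93 ± 0.14 in maize and 0.31 ± 0.14 in wheat, a difference of -1.24 ± 0.20 (adjusted p = 0.00182). Its levels were 8.02 ± 0.32 in HAMS and 8.95 ± 0.21 in LAMS, and 8.85 ± 0.21 in HAW and 8.54 ± 0.21 in LAW (SD). Rpph1 differed by 1.19 ± 0.22 (adjusted p = 0.0139), with 0.89 in maize and -0.30 in wheat, and Ccdc107 by 2.0 ± 0.38 (adjusted p = 0.0139), with 1.33 in maize and -0.68 in wheat. Without LAW replicate 2 the test called 1 gene, and neither Rpph1 nor Ccdc107 passed. All 3 passed in each of the other 28 fits that left out 1 array. With array spread as a covariate only 2 of the 3 passed, and likewise 2 in a fit of the compared diets alone. Only 1 LAW array has the name style of all HAMS arrays, so a fit within that style rests on that array and is not read here. In Ccdc107 the HAMS mean of 10.11 ± 0.68 was the highest of the 6 diets, and the HAW mean of 8.47 ± 0.56 was the lowest. Neither HAW nor LAW differed from the other in these genes past the threshold (adjusted p = 0.9999 for each).

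**Figure D5:**
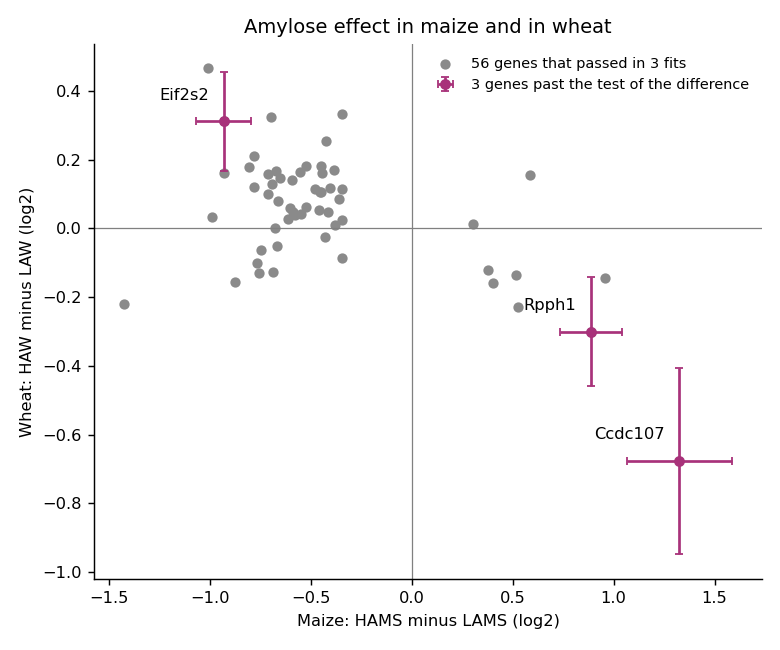
HAMS minus LAMS (log2) on the horizontal axis against HAW minus LAW (log2) on the vertical axis. Gray points are the 56 core genes, of which 45 lie in quadrants of opposite sign, a count not independent of how the 56 were chosen. The 3 genes past the test of the difference, 1 of them outside the 56, carry bars of 1 standard error.

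The same high-amylose starch was also set against its butyrylated form. HAMS minus HAMSB, which shares the HAMS arrays with HAMS minus LAMS, called 1821 genes (16.7%), 271 higher (2.48%) and 1550 lower (14.2%). With the lymphoid level as a covariate 224 passed, beside lymphoid levels of 7.30 ± 1.00 in HAMS and 6.26 ± 0.67 in HAMSB (SD). Pck1 averaged 9.66 ± 0.63 in HAMS, 10.78 ± 0.32 in HAMSB and 10.65 ± 0.54 in LAMS (SD), and HAMS minus HAMSB was -1.12 ± 0.21 (adjusted p = 0.0013). Agr2 likewise averaged 10.32 ± 0.66 in HAMS, 11.23 ± 0.21 in HAMSB and 11.10 ± 0.49 in LAMS, with -0.91 ± 0.21 against HAMSB. For Akr1c19 the difference from HAMSB was -0.80 ± 0.22 (adjusted p = 0.0134) and for Sqor -0.64 ± 0.17 (adjusted p = 0.00862). Eif2s2 (-0.25 ± 0.13, adjusted p = 0.164), Rpph1 (0.28 ± 0.14, adjusted p = 0.152), Ccdc107 (0.56 ± 0.24, adjusted p = 0.099) and Slc16a1 (-0.36 ± 0.14, adjusted p = 0.0695) did not pass against HAMSB, and their HAMSB means lay between the HAMS and LAMS means.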

How the data were processed

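The authors deposited log2 expression values for 29214 probe sets on 43 arrays, and RMA is the tool that the submitters' processing notes list (version not given). RMA subtracts background, aligns the arrays with each other and summarises the probes of a set, so shifts of the whole array are partly removed before deposit. The values ran from 1.31 to 14.05. Arrays carry no read depth, and the number of arrays limits the precision. Raw scans were not used here.

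Of the probe sets 15310 had 1 gene symbol, 323 several and 13581 none. The probe set of highest mean over 43 arrays stood for each of 14506 symbols, and 10934 whose median reached 4.75, the 25th percentile of probe sets with a symbol, were tested. A mean for each of 6 diets was fitted with limma 3.58.1 (lmFit, eBayes) in R 4.3.3, with two-sided tests and Benjamini-Hochberg adjustment at 0.05. The 4 comparisons were HAMS minus LAMS, HAMS minus HAMSB, HAW minus LAW, and the amylose effect in maize minus that in wheat. The script was tested on simulated data. Array spread was compared by exact permutation.

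The comparison, the 47 gene lists (1562 members, 10 matched through older names) and the rule for named genes were chosen with earlier results of these data known. The rule took the 10 largest rises and falls, the 10 of smallest p among genes that passed in 3 fits, up to 4 members of smallest p per list, fixed genes, and 5 genes per other comparison. The text names a choice of the list members, made after their values were seen, and 1 fixed gene is not reported here. Alternatives were filters, all probe sets, priors, array weights, centring, quantile normalisation, blocks, covariates, the compared diets alone and leaving out each array. Quantile normalisation and a block of 3 name forms were chosen after seeing the data. Same-numbered replicates were checked as pairs and did not qualify. Promoters came from RefSeq (GRCr8), where 181 of 234 genes matched, and figures from matplotlib 3.10.9 in Python 3.11.15.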

Additional observations from a re-analysis of the deposited data

Results flagged for a closer look

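In 274 groups of arrays examined for 1 array set apart by Dixon's criterion, 11 held such an array, where chance alone flags about 1 in 20. The array spread of HAMS replicate 6 was 1.83, with the next HAMS array at 1.99. The same array was lowest in HAMS for Mat2a, at 8.59 with the next at 9.26. HAMS replicate 2, the array of highest lymphoid level, was lowest for Hsd11b2 at 8.54 (next 9.22) and for Lgr5 at 4.91 (next 5.82). Mef2b was lowest on HAMS replicate 7 at 5.13 (next 5.55). Of the LAMS arrays, replicate 4 was lowest for Ethe1 at 10.11 (next 10.60) and Gucy2c at 9.47 (next 9.92). LAMS replicate 1 was lowest for Amd1 at 8.06 (next 8.46) and Hdac2 at 7.73 (next 8.14), replicate 5 for Msh3 at 6.16 (next 6.37) and replicate 7 for Luc7l at 7.53 (next 8.04).

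The effect of amylose differed between maize and wheat in 3 genes by the test of that difference in limma. The difference of the effects was -1.24 for Eif2s2 (adjusted p = 0.00182), 1.19 for Rpph1 (adjusted p = 0.0139) and 2.0 for Ccdc107 (adjusted p = 0.0139).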

How the results depend on the processing

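In HAMS minus LAMS 1545 genes passed, against 2547 with all probe sets, 4059 with array weights, 950 with centred arrays, 894 with the style block, 538 with the lymphoid level, 109 with both, 4 with array spread, 945 with 3 name forms, 909 after quantile normalisation and 492 in a fit of the compared diets alone. With 1 array left out the count ran from 614, without LAMS replicate 6, to 2425, without HAMS replicate 1; it was 642 without HAMS replicate 6, 749 without LAMS replicate 3, 766 without HAMS replicate 8, 906 without HAMS replicate 2 and 959 without HAMS replicate 4. Of the named genes, Prg2 lost its call in 12 of 15 such fits, Smap2 in 11, Hoxd10 and Hdac2 in 10, Cd14 and Tcf21 in 9, and Per2, Bmal1, Sytl2, Atp5f1a, Hsd11b2 and Sgk1 in 8. With the replicate block 602 passed, 600 of them among the 1545. The correlation of same-numbered deviations ran from -0.28 to 0.63 over 7 pairs, with 5 above 0.1. Only 1 of the 7 was best with its own number, so the numbers were not used as pairs in the main fit. Whether they mark a shared block of rats is not given in the sources used here. HAMS minus HAMSB gave 1821 genes, 3791 with array weights, 224 with the lymphoid level, 539 with style and lymphoid level, 3334 with 3 name forms, and 923 (without HAMS replicate 2) to 2868 (without HAMS replicate 1) with 1 array left out. The maize minus wheat test gave 3 genes, 15 with all probe sets, 1119 with array weights, 41 with the style block, 5 with the lymphoid level, 27 with both, 2 with array spread, 2 in a fit of the compared diets alone, 50 with 3 name forms, 6 after quantile normalisation, and 1 (without LAW replicate 2) to 219 (without HAW replicate 8) with 1 array left out. HAW minus LAW gave 0 under every alternative run. The array spread difference was -0.0243 with the stricter filter (exact permutation p = 0.0864) and -0.117 within 1 name style (p = 0.0545, exact permutation), and -0.134 to -0.0926 with 1 array left out. Directions turned for Cd3e (-0.15 with the lymphoid level, -0.19 with style and lymphoid level) and Guca2a (0.13 with the lymphoid level), and with style and lymphoid level for Sytl2 (0.03), Cd14 (0.01), Cpt1a (0.06), Slc5a8 (0.09), Slc26a3 (0.23) and Lgr5 (0.06). Where a value moved, the cause was not tested.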
